A study of Mus musculus with 4 samples.

Results

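The genes described here encode the 5 NF-kappaB subunits (Nfkb1, Nfkb2, Rel, Rela and Relb) and 5 inhibitors or IkappaB-like regulators of the pathway (Nfkbia, Nfkbid, Nfkbie, Tnfaip3 and Bcl3). The rule that picks them names the genes and uses no measured value, but the list was chosen with earlier results of these data known. They are 10 of the 13314 genes in the count table. All 10 were measured, in 16948 of 17478 cells. CD4 T cells were sorted from the mesenteric lymph nodes (mLN) of germ-free male mice or of germ-free male mice that were then colonized, and each group was 1 library pooled from 3 mice. Foxp3GFP mice, which carry a GFP reporter at Foxp3, made up 1 germ-free group and 1 group that had received SPF (specific-pathogen-free) fecal microbiota 9 days earlier. Foxp3CNS1- mice, which lack the CNS1 enhancer of Foxp3, made up another germ-free and another colonized group. Every library was made from GFP+ and GFP- cells mixed in equal parts, so the share of GFP+ cells was set by the sort. CNS1 is a noncoding element used when naive CD4 T cells turn into regulatory T (Treg) cells in the periphery. Counts of mRNA 3′ ends therefore do not check the CNS1- label.

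NF-kappaB dimers are held in the cytoplasm by IkappaB proteins until antigen receptors, co-stimulatory receptors or Toll-like receptors activate the IkappaB kinase. In the canonical branch, RelA or c-Rel pairs with p50 (from Nfkb1) and enters the nucleus. In the alternative branch, processing of p100 (from Nfkb2) releases dimers with RelB. Nfkbia and Tnfaip3 are themselves NF-kappaB targets and restrain the pathway after it has been activated. In T cells c-Rel takes part in thymic Treg cell development and acts at Foxp3, and the nuclear IkappaB proteins Nfkbid and Bcl3 modulate p50- and p52-bound genes.

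Because Nfkbia and Tnfaip3 are themselves NF-kappaB targets, the members' promoter sequences with a kappaB motif are shown. RefSeq promoters (250 bases before to 50 after a start, build GRCm38.p6) were held for 8 of the 10 members, with 13 starts (all but Nfkb1 and Relb). Both strands were searched for the kappaB motif. At least 1 match was found at 9 starts of 7 members. Over all genes with a promoter entry, 9.55% had a match. Rela had none in its window, which says only that these letters are not there. The lines below run 5′ to 3′ on the gene's own strand, capitals mark the kappaB match (or a pair of overlapping matches), and 1 window is shown per gene.
Nfkb2 at its first start, chr19:46304689-46304717, plus strand: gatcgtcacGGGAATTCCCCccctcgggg
Rel, chr11:23771042-23771070, minus strand: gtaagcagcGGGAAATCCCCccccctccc
Nfkbia, chr12:55492657-55492686, minus strand: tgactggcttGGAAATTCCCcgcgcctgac
Nfkbid at its second start, chr7:30422170-30422199, plus strand: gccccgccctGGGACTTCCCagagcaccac
Nfkbie, chr17:45555584-45555613, plus strand: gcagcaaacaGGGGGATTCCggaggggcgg
Tnfaip3 at its second start, chr10:19015403-19015432, minus strand: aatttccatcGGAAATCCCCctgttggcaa
Bcl3, chr7:19822734-19822763, minus strand: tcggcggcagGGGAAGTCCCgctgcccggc
The Nfkbia match lay 29 to 20 bases before the start, and the Rel matches lay 92 to 82 bases before it. The Bcl3 match lay just inside the transcribed part, from base 3 to base 12. A STAT motif (TTCNNNGAA, searched on both strands) stood at the first Nfkb2 start and at 2 Nfkbid starts, against 9.55% of all genes. No member had the interferon-stimulated response element on either strand, which 3.99% of all genes held. These matches are letters in a window, not measured binding.

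**Figure D1:**
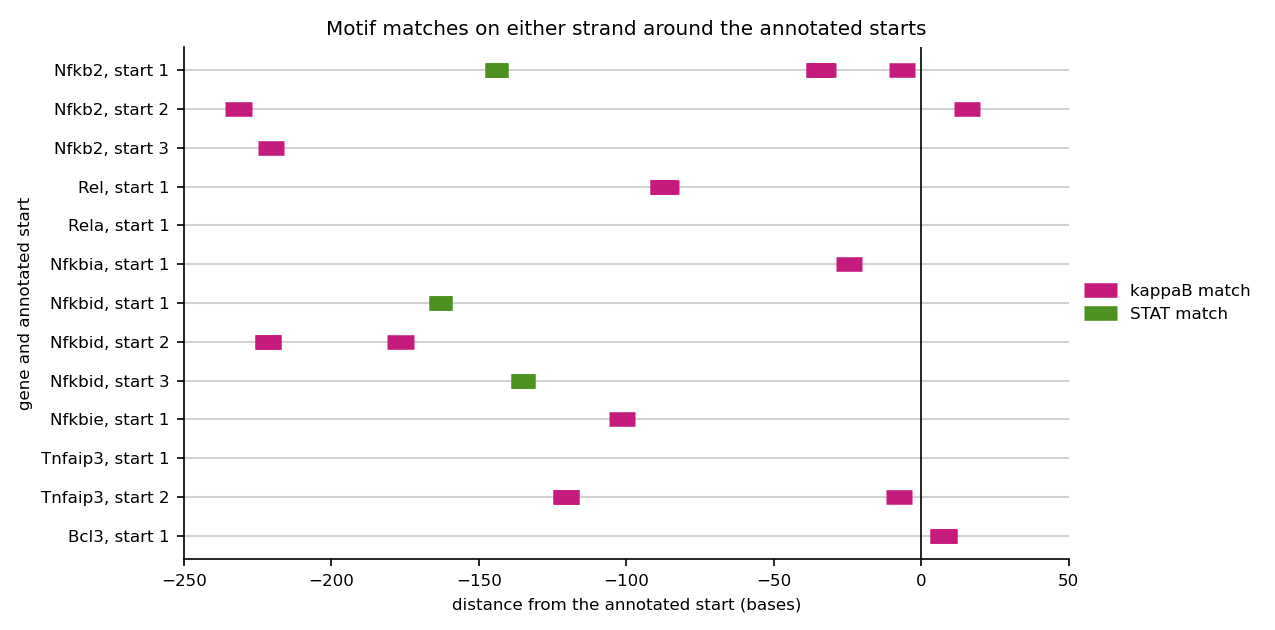
Matches to the kappaB and STAT motifs at the 13 RefSeq starts of 8 members, by distance from the start in bases (x axis). Each line is 1 start and each mark is 1 match on either strand. Nfkb2 and Nfkbid have the STAT matches, and Rela has no kappaB match.

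The libraries held 3533 to 5406 cells with a median of 2286 to 2832 UMIs (counted mRNA molecules) per cell. The colonized libraries were the deeper ones, with medians of 2832 and 2763.5 UMIs against 2399 and 2286 in the germ-free ones. Of each library's cells, 1.68% to 2.09% had a barcode that another library also held. Cells with an Hspa1a or Hspa1b UMI, genes induced by heat and handling, made up 9.95% and 8.84% of the colonized libraries and 0.226% and 0.340% of the germ-free ones. Of the 10 clusters the authors numbered, clusters 0, 3 and 6 (6624 cells) are called Treg-like and clusters 1 and 2 (5342 cells) naive-like. A list of 10 Treg cell markers summed to 4285 to 4648 CPM (UMIs scaled to 1000000 in the class) in Treg-like cells of the 4 libraries and to 545 to 823 in naive-like cells. A list of 10 naive T cell markers summed to 3963 to 4363 CPM in naive-like and 1197 to 1568 CPM in Treg-like cells. Of the Treg-like cells, 24.2% to 34.8% per library held a Foxp3 UMI, at a median depth of 2388 UMIs. Of the naive-like cells, at 2697 UMIs, 3.18% to 7.02% did. Because clusters were made from the genes of these cells, levels by cluster are a description and were not tested. The 1 library per group leaves no replicates, so intervals below (95%, exact unless named otherwise) cover counting error only.

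All 5 subunits were detected in every library. Nfkb1, the precursor of p50, had 88.5 CPM over all cells of the germ-free Foxp3GFP library and 73.3 CPM in the colonized Foxp3GFP library. In Foxp3CNS1- mice it had 76.8 CPM germ-free and 70.7 CPM colonized. A UMI of Nfkb1 was seen in 18.7% of all cells. Rel, which encodes c-Rel, had 40.4 CPM in germ-free and 24.6 CPM in colonized Foxp3GFP mice, and 35.4 and 28.4 CPM in germ-free and colonized Foxp3CNS1- mice. Both germ-free libraries were thus above both colonized ones for Nfkb1 and for Rel. Rela, the partner of p50 in the canonical dimer, was nearly level, at 37.6 to 41.9 CPM. The alternative-branch genes Nfkb2 and Relb spanned 29.3 to 34.2 CPM and 41.6 to 48.9 CPM.

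Among the inhibitors, Nfkbia, which encodes IkappaB-alpha, gave most of the counts, with 17575 of the members' UMIs and at least 1 UMI in 47.2% of cells. It had 366 and 336 CPM in germ-free and colonized Foxp3GFP mice and 328 and 338 CPM in germ-free and colonized Foxp3CNS1- mice. Nfkbie (IkappaB-epsilon) spanned 20.8 to 25 CPM and Tnfaip3, the ubiquitin-editing enzyme A20, 9.26 to 13.6 CPM. Nfkbid (IkappaB-NS) had 32.8 and 26.3 CPM in germ-free and colonized Foxp3GFP mice and 31.7 and 25.7 CPM in germ-free and colonized Foxp3CNS1- mice. Nfkbid counts were the most concentrated in few cells: 10 cells held 6.01% of its UMIs, against 1.39% to 3.85% for the other 9 members. Bcl3, the atypical IkappaB protein that joins p50 or p52 dimers in the nucleus, had 21.1 and 22.6 CPM in the germ-free and 43.4 and 36.9 CPM in the colonized libraries. As a ratio this was the widest gap of the 10 members between germ-free and colonized libraries over all cells, in both genotypes.

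Across the authors' clusters most members were high in cluster 3, the Treg-like cluster led by Epcam, Tnfrsf9, Cd83 and Itgae, and low in naive-like clusters 1 and 2. Nfkbia had 652 ± 81.1 CPM (SD of the 4 libraries) in cluster 3, with a range of 562 to 759. The next cluster, 6, had 386 to 477 CPM, so the libraries of these neighbours did not overlap. Naive-like cluster 1 had 189 to 278 CPM and cluster 2 had 219 to 284 CPM, which overlapped each other. Nfkbie had 41.7 to 60.5 CPM in cluster 3, above the 22.9 to 29.9 CPM of cluster 0, and 10.9 to 17.9 CPM in clusters 1 and 2. In the small cluster 9 it spanned 24.8 to 122 CPM, which overlapped cluster 3. Of the other inhibitors, Nfkbid had 51 to 64.8 CPM in cluster 3. Bcl3 had 36.1 to 66.6 CPM there, which overlapped its 29.9 to 45.0 CPM in cluster 6.

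Of the subunits, Relb separated the clusters in a like way, while Nfkb1, Nfkb2, Rel and Rela overlapped between clusters next to each other in level. Relb had 75.8 to 124 CPM in cluster 3, above the 44.9 to 74.8 CPM of cluster 8, which is led by the proliferation genes Hist1h2ap and Pclaf. In naive-like clusters 1 and 2 Relb had 20.8 to 31.3 CPM, below every library of cluster 5 (39.7 to 54.2 CPM). Cluster 9, a group of 84 cells led by Sostdc1, Il4 and Pdcd1, had 99.3 to 192 CPM of Relb, which overlapped cluster 3. Nfkb2 had 52.2 to 64.6 CPM and Rel 44.4 to 66.3 CPM in cluster 3. Nfkb1 had 83.5 to 124 CPM in cluster 3, which overlapped its 83.6 to 116 CPM in cluster 8. Rela had 43.0 to 76.3 CPM in cluster 3, which overlapped its 40.3 to 51.2 CPM in cluster 0. Within cluster 3 Rel had 66.3 and 65.9 CPM in the germ-free libraries and 44.4 and 44.7 CPM in the colonized ones, with no overlap. Nfkbid in cluster 9 rested on 1 library: 23 UMIs in 25 cells of the germ-free Foxp3GFP library (315 CPM), 1 UMI in the colonized Foxp3GFP library, and 0 in both Foxp3CNS1- libraries. With 17 and 24 cells there, 0 UMIs allow up to 91.6 and 49.5 CPM by the exact interval.

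**Figure D2:**
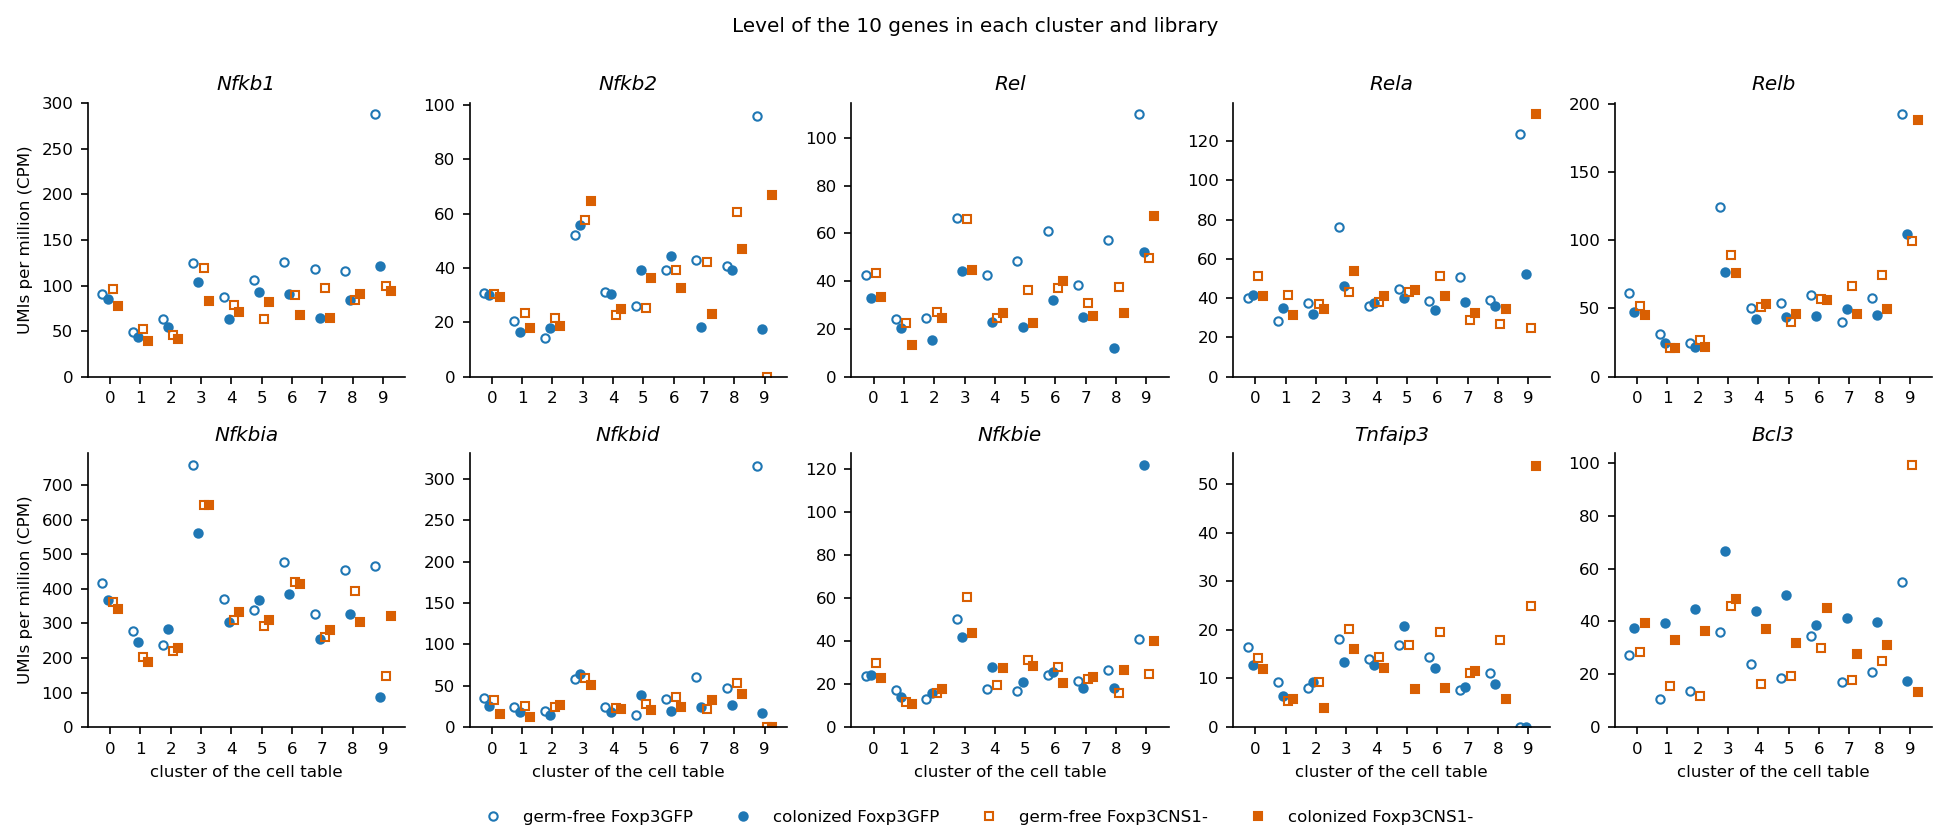
Level of each member in CPM (y axes, each from 0) in the authors' clusters 0 to 9 (x axes), with 1 point per library and 1 panel per gene. Each member has its highest mean over the libraries in cluster 3 among clusters 0 to 8. Nfkbia, Relb, Nfkbie and Nfkb2 are low in clusters 1 and 2, and Bcl3 splits the libraries by colonization within most clusters.

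The members did not share 1 pattern over clusters and libraries. Spearman correlations were taken over clusters 0 to 8 in 4 libraries (36 values, which share libraries, depth and the cells used for clustering) and are given without a test. Relb and Nfkbia correlated at 0.81, Nfkb1 and Nfkb2 at 0.78, and Nfkb1 and Rel at 0.73. Bcl3 stood apart, with -0.02 to 0.38 against the other 9 members. Among 4794 genes with at least 1000 UMIs, the genes closest to Bcl3 were Xaf1 (0.79), Trim30a (0.79) and Isg15 (0.78). Those closest to Rel were Cd83, Nrip1 and Pou2f2 (0.88 each), and those closest to Relb were Cd83 (0.87), Hivep3 (0.86) and Mmd (0.86). Nfkbia was most like Twsg1 (0.92), Ikzf2 (0.90) and Nrip1 (0.90). Nfkb1 was most like Mmd (0.85), Tle3 (0.83) and Prkca (0.82), and Nfkb2 was most like Tnfrsf9 (0.84), Mmd (0.83) and Naa20 (0.82). The nearest genes to Rela were Dnase2a (0.82), Nktr (0.79) and Akr1b10 (0.78). For Nfkbid they were Rnf8 (0.80), Ppp1r11 (0.75) and Hif1a (0.74), for Nfkbie Syt11, Sdcbp2 and Lax1 (0.82 each), and for Tnfaip3 Itga4 (0.82), Akna (0.80) and Lztfl1 (0.78).

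**Figure D3:**
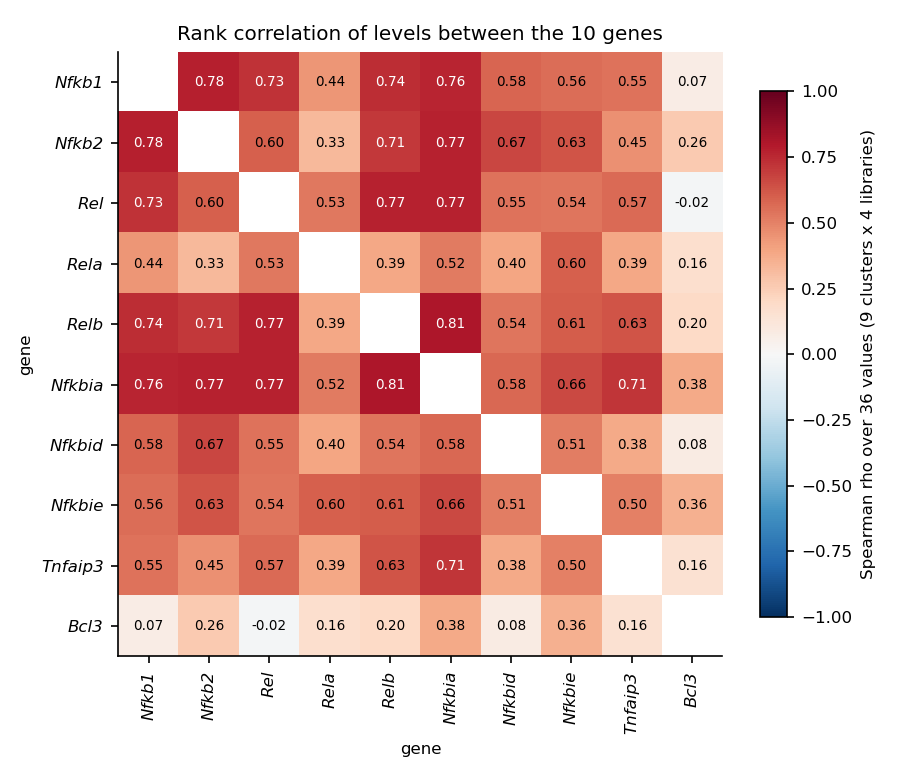
Spearman correlation between each pair of the 10 members over clusters 0 to 8 in 4 libraries (36 values of log2(CPM + 1) per gene). Colour and number give the coefficient; Relb with Nfkbia reaches 0.81, and the Bcl3 row lies between -0.02 and 0.38.

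Colonization was compared with the germ-free state within each genotype. Bcl3 was the member that stood out, and most of all in naive-like cells. In naive-like cells of Foxp3GFP mice Bcl3 had 12.3 CPM germ-free and 41.5 CPM colonized (50 and 167 UMIs). In Foxp3CNS1- mice it had 13.2 CPM germ-free and 34.3 CPM colonized (39 and 140 UMIs). Both colonized libraries lay above both germ-free ones. The log2 ratio was 1.75 (interval 1.29 to 2.24) in Foxp3GFP and 1.38 (0.85 to 1.93) in Foxp3CNS1- mice. These ratios stood at the 99.8th and 99.7th percentiles of the genes tested, meaning those with at least 50 UMIs over both libraries. At a threshold of 1.5-fold, Bcl3 was the 1 member past it, out of 10 tested in Foxp3GFP and 9 in Foxp3CNS1- mice. In these comparisons 2.71% of 7613 genes and 1.96% of 7207 genes were at least 1.5-fold higher. No member was at least 1.5-fold lower, as 4.33% and 5.77% of the genes were. Tnfaip3 had 44 UMIs in the naive-like Foxp3CNS1- comparison and was not tested there.

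The share of naive-like cells with a Bcl3 UMI moved with its level. It was 3.34% (2.49% to 4.39%) and 10.5% (8.89% to 12.2%) in germ-free and colonized Foxp3GFP mice, and 2.98% (2.06% to 4.16%) and 8.89% (7.45% to 10.5%) in germ-free and colonized Foxp3CNS1- mice. With each cell thinned to 1500 UMIs, which removes the gap in depth, the shares were 2.0% and 5.08% in Foxp3GFP and 2.09% and 4.68% in Foxp3CNS1- mice. The colonized shares remained the higher ones after thinning. Without the cells that held an Hspa1a or Hspa1b UMI, 12.1% and 12.0% of naive-like cells in the colonized libraries, the log2 ratios were 1.77 and 1.37.

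In Treg-like cells the difference in Bcl3 was smaller. Bcl3 had 31.5 and 44.9 CPM in germ-free and colonized Foxp3GFP mice, and 32.4 and 43.3 CPM in germ-free and colonized Foxp3CNS1- mice. The log2 ratios of 0.51 (0.16 to 0.87) and 0.42 (0.11 to 0.74) had intervals above 0 and were under 1.5-fold. In the Treg-like cells with a Foxp3 UMI, Bcl3 had 32.7 and 50.3 CPM in germ-free and colonized Foxp3GFP mice and 26.5 and 52.8 CPM in germ-free and colonized Foxp3CNS1- mice. Those log2 ratios, 0.62 and 0.99, were past 1.5-fold. They rested on 36 and 88 UMIs in germ-free and colonized Foxp3GFP mice and 27 and 124 in Foxp3CNS1- mice. Taking all Treg-like cells but those that held an Il4, Il21, Sostdc1 or Cxcr5 UMI, the ratios were 0.59, just past 1.5-fold, and 0.22. For neither of these sets of cells was the share of all genes past 1.5-fold counted. Germ-free Treg-like cells thus had a higher Bcl3 level than germ-free naive-like cells, and the colonized levels of the 2 classes lay nearer to each other. By cluster, Bcl3 was higher in the colonized library in 8 of 8 clusters tested in each genotype. A gene tested in at least 8 clusters was higher in all of them in 5.1% of 3527 cases in Foxp3GFP and in 3.39% of 3983 cases in Foxp3CNS1- mice. Clusters 1 and 2 gave log2 ratios of 1.88 and 1.70 in Foxp3GFP and 1.10 and 1.62 in Foxp3CNS1- mice. The lowest values over clusters were 0.16 and 0.09. Cluster 9 was not tested, with 1 to 4 Bcl3 UMIs per library.

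**Figure D4:**
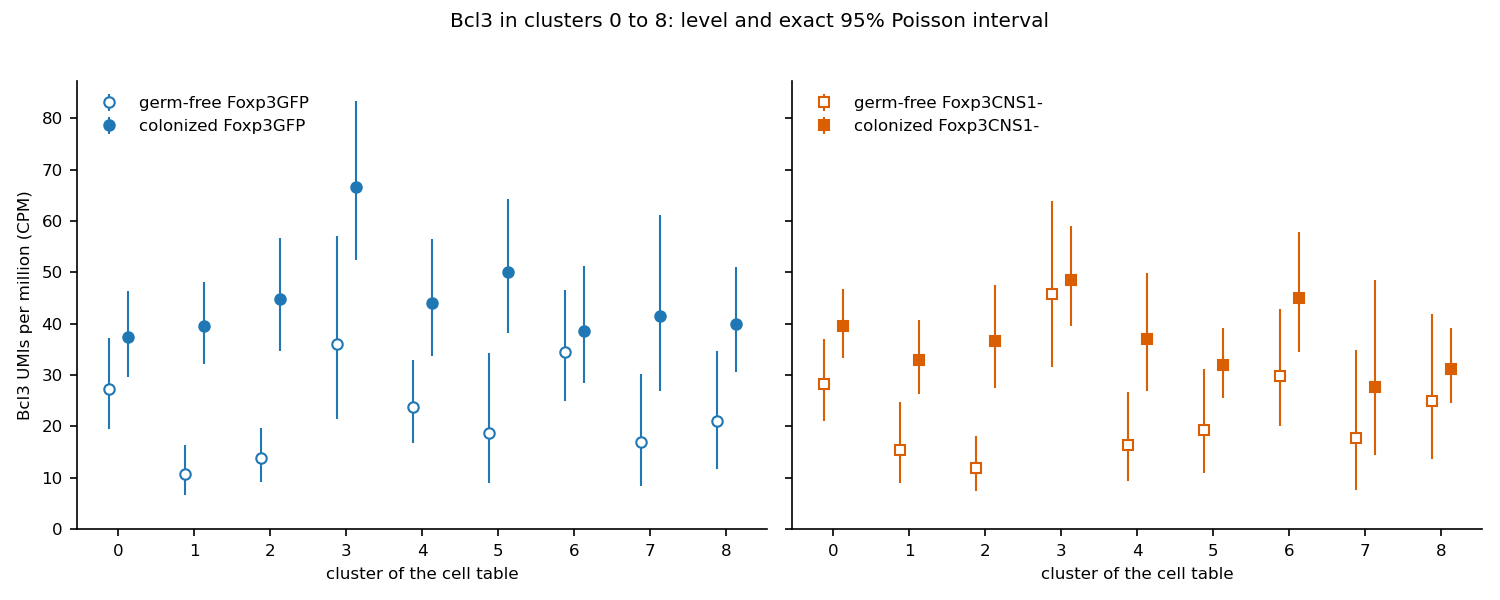
Bcl3 in CPM (y axis, from 0) in clusters 0 to 8 (x axis), 1 point per library with its exact Poisson interval, which covers counting error only. The colonized libraries lie above the germ-free library of the same genotype in all 9 clusters.

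Rel was lower after colonization in both classes of both genotypes. Its Treg-like level was 53.3 and 35.5 CPM in germ-free and colonized Foxp3GFP mice, and 46.4 and 38.0 CPM in germ-free and colonized Foxp3CNS1- mice. Both germ-free libraries were above both colonized ones. The log2 ratio was -0.59 (-0.91 to -0.27) in Foxp3GFP, which is just past 1.5-fold, and -0.29 (-0.58 to 0.00) in Foxp3CNS1- mice. Rel was the 1 of 10 members at least 1.5-fold lower in Treg-like cells of Foxp3GFP mice, where 4.73% of 8075 genes were; none was higher by that fold, as 3.18% of genes were. Centred on the median of all genes it was -0.54, and with equal weight per cell -0.55, neither of which is past 1.5-fold. No member was past 1.5-fold in Treg-like cells of Foxp3CNS1- mice, where 2.34% of 8735 genes were higher and 5.86% lower. In naive-like cells Rel had 24.4 and 18.4 CPM in germ-free and colonized Foxp3GFP mice and 25.4 and 17.4 CPM in germ-free and colonized Foxp3CNS1- mice. By cluster it was lower in 8 of 8 clusters tested in Foxp3GFP mice, where 5.5% of genes were lower in every cluster, and in 6 of 8 in Foxp3CNS1- mice.

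Nfkb1 went the same way as Rel with smaller ratios. Its Treg-like level was 110 and 90.9 CPM in germ-free and colonized Foxp3GFP mice, and 99.4 and 77.2 CPM in germ-free and colonized Foxp3CNS1- mice. The log2 ratios were -0.27 (-0.48 to -0.06) and -0.36 (-0.56 to -0.17). In the Treg-like cells with a Foxp3 UMI they were -0.59, just past 1.5-fold, and -0.25, and those of Rel were -0.61 and -0.72. Rel there rested on 51 and 53 UMIs in germ-free and colonized Foxp3GFP mice and 67 and 94 in Foxp3CNS1- mice. The share of all genes past 1.5-fold was not counted in these cells. By cluster Nfkb1 was lower in 9 of 9 clusters in Foxp3GFP mice, where 5.5% of 3527 genes were lower in every cluster tested. In Foxp3CNS1- mice it was lower in 7 of 9. Relb had 70.8 and 53.7 CPM in Treg-like cells of germ-free and colonized Foxp3GFP mice, a log2 ratio of -0.40 (-0.66 to -0.13). In Foxp3CNS1- mice its 60.8 and 56.5 CPM gave -0.11, with an interval that includes 0. For Rela (log2 ratios of -0.16 and -0.14) and Nfkb2 (0.11 and 0.07) in Treg-like cells the differences were not detectable at this depth. Within cluster 3 Rela had 76.3 and 46.1 CPM in germ-free and colonized Foxp3GFP mice, a log2 ratio of -0.73, past 1.5-fold. Relb, at -0.71, was also past it there, beside 7.8% of 4078 genes at least 1.5-fold lower. In Foxp3CNS1- mice Rela had 43.0 and 53.9 CPM there, a ratio of 0.33. The difference between the Rela ratios was 1.05 (0.22 to 1.88). In that cluster 7.88% of 4076 genes had a difference at least 1.5-fold higher in Foxp3CNS1- mice. The Rela difference was -0.36 in cluster 0 and -0.13 in cluster 6, with intervals that include 0. Over all Treg-like cells it was 0.01 (-0.40 to 0.43).

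Nfkbia differed between the genotypes in its Treg-like ratio, by more than counting error but under 1.5-fold. Its Treg-like level was 493 and 421 CPM in germ-free and colonized Foxp3GFP mice, a log2 ratio of -0.23 (-0.33 to -0.13). In Foxp3CNS1- mice it had 437 and 445 CPM, a ratio of 0.03 (-0.06 to 0.11). The difference between these ratios, Foxp3CNS1- minus Foxp3GFP, was 0.26 (0.13 to 0.39, from the Poisson variance of the 4 counts). It was 0.43 (0.19 to 0.67) in cluster 3 and 0.28 (0.03 to 0.54) in cluster 6. In cluster 0, with 3180 cells the largest Treg-like cluster, it was 0.10 (-0.11 to 0.30). In naive-like cells Nfkbia had log2 ratios of 0.02 and -0.07. Naive-like cluster 1 gave -0.17 and -0.11 and cluster 2 gave 0.26 and 0.06, in Foxp3GFP and Foxp3CNS1- mice. Nfkbid in Treg-like cells had 39.1 and 27.9 CPM in germ-free and colonized Foxp3CNS1- mice, a log2 ratio of -0.49 (-0.81 to -0.16). With cells thinned to 1500 UMIs the same ratio was 0.07; thinning also left out the cells under that depth. It was below 0 under the other 7 of 8 alternatives. Nfkbie and Tnfaip3 in the same comparison had -0.32 (-0.65 to 0.01) and -0.45 (-0.94 to 0.05).

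Over the whole set, 3 members were higher and 7 lower after colonization in Treg-like cells of each genotype, where 42.7% and 38% of genes were higher by any amount in Foxp3GFP and Foxp3CNS1- mice. In naive-like cells 3 of 10 and 1 of 9 were higher, beside 43% and 38.1% of genes. The median log2 ratio of the members was -0.21 in Foxp3GFP and -0.22 in Foxp3CNS1- mice, beside medians of -0.05 and -0.07 over all genes tested. In naive-like cells the medians were -0.14 and -0.25, beside -0.05 and -0.07 over all genes tested. Markers of plasma cells (Jchain, Mzb1, Xbp1 and Derl3, 4 of 4 measured) moved with colonization in Treg-like cells, from a summed 57.4 and 69.5 CPM germ-free to 218 and 335 CPM colonized. In naive-like cells this sum was 26.1 and 26.4 CPM germ-free and 33.5 and 28.9 CPM colonized, and in the germ-free libraries Mzb1 was at 0. The 8 follicular helper markers, all measured and none at 0, summed to 248 and 396 CPM in germ-free and 159 and 185 CPM in colonized Treg-like cells of Foxp3GFP and Foxp3CNS1- mice. Their sum was 2736 CPM in cluster 9, where Relb was also high. Without the cells that held an Il4, Il21, Sostdc1 or Cxcr5 UMI, the Treg-like ratios in Foxp3GFP mice were -0.62 for Rel, -0.22 for Nfkb1 and -0.38 for Relb. In Foxp3CNS1- mice they were -0.12 for Rel, -0.28 for Nfkb1 and -0.02 for Relb, so the Rel ratio there was nearer to 0 than the -0.29 of all Treg-like cells. The 11 measured genes of the handling response list summed to 517 to 676 CPM over both classes and all libraries. The part of the plasma cell and handling genes in the members' ratios was not tested.

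**Figure D5:**
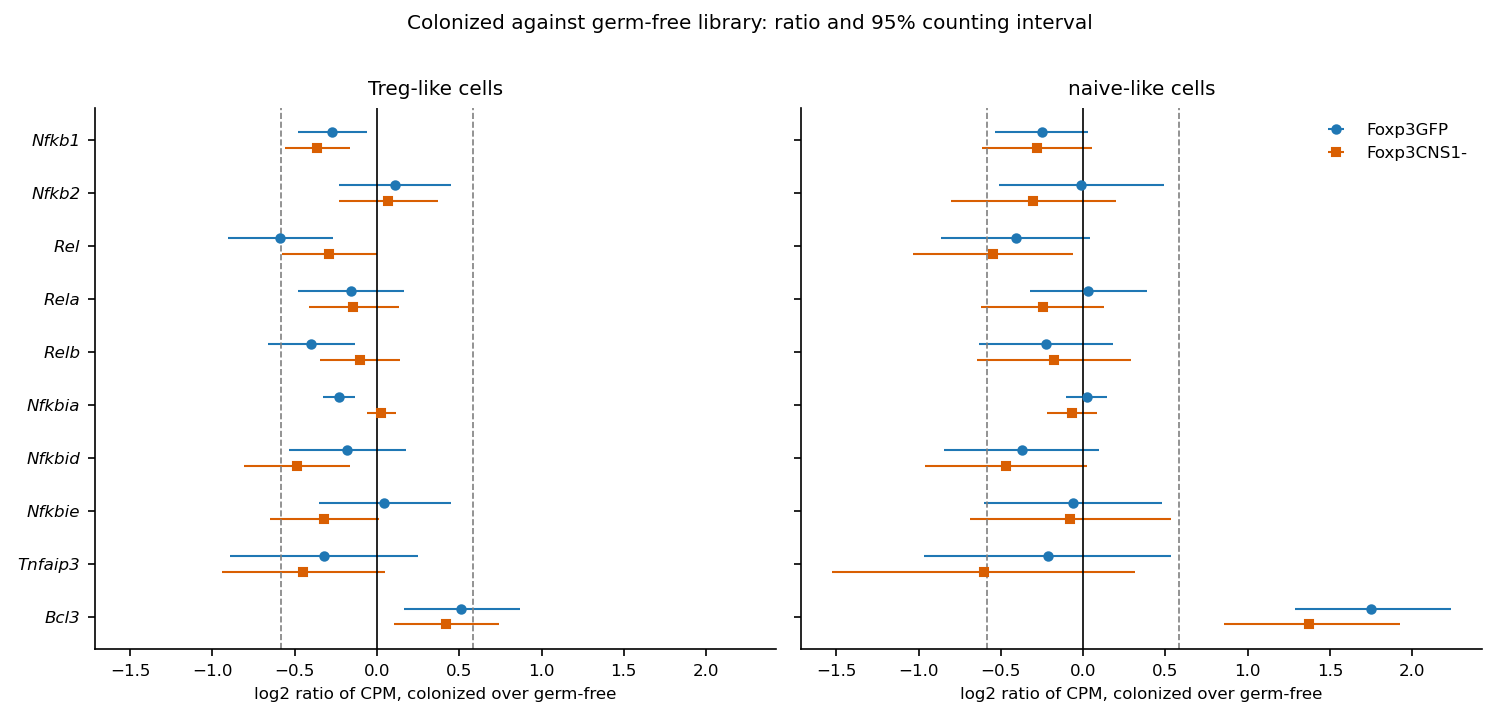
Log2 ratio of colonized over germ-free for each member in Treg-like and naive-like cells, 1 point per genotype, with the exact interval for counting error. Dashed lines mark 1.5-fold; Bcl3 in naive-like cells is far to the right of the line in both genotypes, and Rel in Treg-like cells of Foxp3GFP mice sits on the left one. Tnfaip3 in naive-like cells of Foxp3CNS1- mice rests on 44 UMIs.

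Cluster 5, which carries no cell type name here and is led by S100a4, Ccr2 and S100a6, showed Rel and Bcl3 moving in opposite directions. Rel had 48.6 and 20.8 CPM in germ-free and colonized Foxp3GFP mice, and 36.1 and 22.6 CPM in germ-free and colonized Foxp3CNS1- mice. Bcl3 had 18.7 and 50.0 CPM in germ-free and colonized Foxp3GFP mice, and 19.3 and 31.9 CPM in germ-free and colonized Foxp3CNS1- mice. The log2 ratios in Foxp3GFP mice were -1.22 (-2.07 to -0.37) for Rel and 1.42 (0.44 to 2.55) for Bcl3. In Foxp3CNS1- mice they were -0.68 for Rel and 0.73 (-0.05 to 1.60) for Bcl3. Of 8 members tested in Foxp3GFP mice, 2 were at least 1.5-fold higher (8.05% of 4027 genes were) and 1 was lower (6.06% of genes). Of 9 tested in Foxp3CNS1- mice, 1 was higher (5.99% of 6013 genes) and 1 lower (6.65%). The second higher member in Foxp3GFP mice was Nfkbid, with 14.9 and 38.3 CPM from 8 and 46 UMIs. In Foxp3CNS1- mice Nfkbid had 27.7 and 20.4 CPM, the other direction. The difference between its ratios, Foxp3CNS1- minus Foxp3GFP, was -1.80 (-3.09 to -0.51).

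The genotypes were also compared within each microbiota state. No member was past 1.5-fold in Treg-like cells, where 3.51% of 7916 genes were higher and 1.77% lower in germ-free Foxp3CNS1- than in germ-free Foxp3GFP mice. The shares among colonized mice were 2.12% and 1.77% of 8800 genes. In naive-like cells no member passed either, beside 2.61% higher and 2.55% lower of 7364 genes among germ-free mice and 1.38% and 3.43% of 7484 genes among colonized mice. Nfkbia had intervals under 0 in 3 of the 4 comparisons of class and microbiota state. Its naive-like level was 256 CPM in germ-free Foxp3GFP and 213 CPM in germ-free Foxp3CNS1- mice, a log2 ratio of -0.27 (-0.41 to -0.12). Among colonized mice it had 260 and 204 CPM, a ratio of -0.36 (-0.49 to -0.22). In Treg-like cells the ratios were -0.18 (-0.28 to -0.07) germ-free and 0.08 colonized. By cluster, Nfkbia was lower in germ-free Foxp3CNS1- mice in 9 of 9 clusters, with log2 ratios of -0.45 to -0.11. Among colonized mice it was lower in 5 and higher in 4 of 9 clusters (-0.38 to 0.19). Among genes tested in at least 8 clusters, 1.55% of 2845 were lower in every one in the germ-free comparison. The Bcl3 difference after colonization between genotypes, Foxp3CNS1- minus Foxp3GFP, was -0.09 in Treg-like and -0.38 (-1.06 to 0.31) in naive-like cells. Over all cells it was -0.33, with an interval of -0.65 to -0.02. The Rel and Nfkbia differences over all cells were 0.40 (0.12 to 0.69) and 0.17 (0.08 to 0.26). These values were under 1.5-fold and mix the classes, with Treg-like cells 31.1% to 44.7% of a library. The Rel difference was 1.01, 1.03 and 1.77 in clusters 4, 6 and 8, with intervals above 0. There 6.04%, 7.24% and 10.6% of genes had a difference at least 1.5-fold higher. In the other clusters tested the Rel interval included 0.

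Treg-like cells with a Foxp3 UMI were set against Treg-like cells without one from the same library, a contrast that does not use the members. Nfkbia was higher in the cells with a Foxp3 UMI in 4 of 4 libraries. It had 530 against 474 CPM in germ-free and 430 against 415 CPM in colonized Foxp3GFP mice. In Foxp3CNS1- mice it had 501 against 411 CPM germ-free and 490 against 421 CPM colonized. The mean log2 ratio was 0.18 ± 0.098 (SD, n = 4 libraries), with an exact two-sided sign-flip permutation p of 0.125, the smallest that 4 libraries allow. Thinned to 1500 UMIs per cell, the mean was 0.30, again higher in 4 of 4 libraries. Of 5702 genes tested, 11.6% were higher in all 4 libraries and 11.3% lower, so 1 of 10 members is close to that background. No other member was higher, or lower, in all 4 libraries.

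The rest of the pathway was counted from lists of its other inhibitors (10 genes), adaptors and kinases (27), receptors (17 of 18 measured), ligands (9) and target genes (24). In Treg-like cells of Foxp3GFP mice, the genes at least 1.5-fold higher and lower after colonization were 1 and 1 of 10 other inhibitors tested, 1 and 0 of 27 adaptors and kinases, 1 and 0 of 11 receptors, 2 and 2 of 7 ligands and 1 and 2 of 18 targets. In Foxp3CNS1- mice they were 0 and 0 of 10, 0 and 1 of 27, 1 and 2 of 12, 0 and 4 of 8, and 0 and 2 of 19. Over all genes, 3.18% were higher and 4.73% lower in Foxp3GFP mice, and 2.34% and 5.86% in Foxp3CNS1- mice. Among the ligands the genes past the fold went both ways in Foxp3GFP mice. Lta, which encodes lymphotoxin-alpha, had 23.4 and 39.4 CPM germ-free and colonized in Foxp3GFP and 33.5 and 34.1 CPM in Foxp3CNS1- mice. Tnfsf10, which encodes TRAIL, had 4.99 and 10.7 CPM in Foxp3GFP and 12.1 and 10.6 CPM in Foxp3CNS1- mice. The median log2 ratio of the ligands was -0.15 in Foxp3GFP and -0.47 in Foxp3CNS1- mice, beside -0.05 and -0.07 over all genes tested, and that of the receptors was 0.17 and 0.09. Tnfsf8, which encodes CD30 ligand, had 103 and 64.2 CPM germ-free and colonized in Foxp3GFP and 148 and 71.9 CPM in Foxp3CNS1- mice. Tnfsf11, which encodes RANKL, had 32.7 and 21.3 CPM in Foxp3GFP and 48.7 and 25.7 CPM in Foxp3CNS1- mice. The target Cd83, the gene nearest to Rel and Relb in pattern, had 135 and 60.9 CPM in Foxp3GFP and 161 and 98.4 CPM in Foxp3CNS1- mice. For these 3 genes both germ-free libraries lay above both colonized ones.

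In naive-like cells the same counts in Foxp3GFP mice were 0 and 3 of 9 other inhibitors, 2 and 0 of 27 adaptors and kinases, 0 and 0 of 11 receptors, 0 and 0 of 5 ligands and 2 and 0 of 15 targets. In Foxp3CNS1- mice they were 0 and 1 of 8, 1 and 0 of 26, 0 and 2 of 11, 0 and 1 of 4, and 0 and 2 of 14. The shares over all genes were 2.71% higher and 4.33% lower in Foxp3GFP and 1.96% and 5.77% in Foxp3CNS1- mice. The inhibitor Otulin, which removes linear ubiquitin chains, had 38.7 and 24.3 CPM in naive-like cells of germ-free and colonized Foxp3GFP mice, and 22.4 and 18.1 CPM in germ-free and colonized Foxp3CNS1- mice. The germ-free libraries thus differed from each other by more than the change with colonization in Foxp3GFP mice. The target Icam1 had 12.1 and 25.6 CPM in Foxp3GFP and 15.6 and 21.1 CPM in Foxp3CNS1- mice. The target Myc had 33.0 and 24.6 CPM in Foxp3GFP and 50.2 and 25.7 CPM in Foxp3CNS1- mice, germ-free and colonized. The Bcl3 log2 ratios in these cells (1.75 and 1.38) can be read beside the 1.08 of Icam1 in Foxp3GFP mice, whose interval of 0.58 to 1.60 overlaps that of Bcl3.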

How the data were processed

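The authors deposited 1 table of UMI counts per cell, and the submitters' processing notes name mm10, Cell Ranger (without a version) and Scanpy 1.5.1. No filter on cells or genes is stated in the labels. Library, cluster and removal mark came from the deposited cell table. Of 17478 barcodes, 303 marked as removed and 227 without a row there were not used. No doublet caller was run. For each class of cells the counts of a library were added up and scaled to CPM. Ratios carry exact Clopper-Pearson 95% intervals, and levels exact Poisson or binomial ones; both cover counting error only. A gene needed at least 50 UMIs in the pair of libraries and was set against 1.5-fold, a threshold of size, since 1 library per group allows no test. The scripts were tested on simulated data. All 10 members are named; of other lists, at most 4 genes per direction and comparison qualified, ranked by the interval bound nearest to no change, and for each member the 3 genes most alike in pattern, leaving out receptor, immunoglobulin, ribosomal, mitochondrial and predicted genes. Members and lists were chosen with earlier results of these data known. Alternatives changed the scaling, depth, cell weights, cells kept and thresholds. Python 3.11.15, numpy 2.4.6, scipy 1.17.1, pandas 2.3.3 and matplotlib 3.10.9 were used.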

Additional observations from a re-analysis of the deposited data

How the results depend on the processing

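Each ratio of a single member was recomputed under 8 alternatives. Of 640 such values, 621 stayed within the counting interval of the reported value. The sign was the other one in 59 values, and 50 of 80 ratios had the same sign under all 8 alternatives. Of the ratios whose interval excluded 0, those that left the interval and turned were Nfkbid after colonization in Treg-like Foxp3CNS1- cells (-0.49, and 0.068 thinned to 1500 UMIs) and Nfkb1 in colonized Treg-like cells of Foxp3CNS1- over Foxp3GFP mice (-0.24, and 0.030 in cells with a Foxp3 UMI). The 10 members summed in Treg-like cells moved from -0.20 to -0.29 in Foxp3GFP mice when clusters had equal weight, and from -0.07 to 0.0022 in Foxp3CNS1- mice when centred on the median of all genes. Restricted to cells with a Foxp3 UMI, the summed ratio of Foxp3CNS1- over Foxp3GFP went from -0.11 to 0.0067 germ-free and from 0.02 to 0.19 colonized. Centring subtracts the median of all genes, which was -0.07 there; the other causes were not tested. Bcl3 in naive-like cells stayed between 1.55 and 1.81 (Foxp3GFP) and between 1.06 and 1.45 (Foxp3CNS1-), and Bcl3 in Treg-like Foxp3CNS1- cells spanned 0.22 to 0.99. At the lowest fold tried, 4 members passed after colonization in Treg-like cells of each genotype and 3 in naive-like cells of each; at 2-fold, Bcl3 in naive-like cells was the 1 member left. No paired analysis was possible because each group is 1 library. Depth limits Tnfaip3 most, with 572 UMIs over all cells.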

Other observations

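A second clustering by the authors covers part of the cells. Of its 10 subsets, subset 0 (1942 cells) had the highest Nfkbia level, 626 CPM, beside 59.5 CPM of Nfkb2, 82.2 CPM of Relb and 50.9 CPM of Bcl3. Subset 5 (632 cells) had 119 CPM of Nfkb1 and 78.7 CPM of Relb beside 304 CPM of Nfkbia. Bcl3 in that subset was not higher in the colonized library of Foxp3GFP mice, with 32.9 CPM germ-free and 19.1 CPM colonized. Subset 3 had 18.3 and 47.5 CPM. In Foxp3CNS1- mice subset 5 had 28.5 and 31.9 CPM and subset 3 had 19.3 and 35.2 CPM. These values were not tested, since the subsets were made from genes of the same cells. They are given without counting intervals, and few cells per library stand behind subset 5.

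The 303 removed cells held 333 CPM of Nfkbia, 45.0 CPM of Nfkb2 and 31.2 CPM of Bcl3. For every member the lower bound of the exact Poisson interval in these cells lay under the highest library of the analysed cells.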
